A study of Mus musculus with 16 samples.

Results

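The jejunum and the ileum were compared in mice after weaning, at postnatal day 36 (P36). The comparison used 8 of the 16 RNA-seq libraries of the series, chosen by their age and region labels: 4 libraries of P36 jejunum and 4 of P36 ileum, with all 24421 counted genes. Each of 4 wild-type C57BL6/J mice gave both regions, so that every jejunum library has an ileum library of the same mouse. Mice 1 and 2 were female and mice 3 and 4 male, and no mouse had been treated. From each mouse a short piece from the middle of each region was opened and kept in EDTA, which loosens the epithelium from the wall, and the cells were shaken off and frozen for RNA. The other 8 libraries, from the same regions of 4 mice at P6 with the same strain and sexes, entered the fit and are used below only where the ages are compared. Fold changes are jejunum over ileum and given as log2 (log2FC), so that a positive value means a higher level in the jejunum.

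The small intestine is lined by a single layer of epithelium that is renewed from crypts. Most of its cells are absorptive enterocytes, which carry digestive enzymes and transporters on a brush border, and the others include mucus-secreting goblet cells, antimicrobial Paneth cells, hormone-secreting enteroendocrine cells and chemosensory tuft cells. The jejunum is known for the uptake of fat, sugars and amino acids. The ileum is known for the active recovery of bile acids and of vitamin B12, and the transcription factor Gata4 is known to maintain the jejunal programme and to keep the ileal bile acid genes silent there.

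Lactase and the ileal bile acid transporter are textbook markers of the 2 regions, and the sequence around the start of each gene is shown because their levels lay furthest apart among the digestive enzymes and the bile acid transporters. Both are RefSeq sequences of GRCm38.p6, the assembly of mm10, and run 5′ to 3′ from 250 bases before to 50 bases after the start, on the minus strand. Capitals mark the hexamers AGATAA or TGATAA on either strand, a simple form of the site that GATA factors bind. The Lct window is chr1:128328269-128328568 and the Slc10a2 window chr8:5105238-5105537. The Slc10a2 window follows the RefSeq start. It lies just upstream of the gene as counted, which begins at 5105232 on that strand.
Lct: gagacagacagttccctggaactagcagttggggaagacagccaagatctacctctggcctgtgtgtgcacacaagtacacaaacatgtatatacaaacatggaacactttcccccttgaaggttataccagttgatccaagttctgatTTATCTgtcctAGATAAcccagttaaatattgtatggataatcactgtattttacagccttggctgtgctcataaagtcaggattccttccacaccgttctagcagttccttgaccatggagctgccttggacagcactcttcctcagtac
Slc10a2: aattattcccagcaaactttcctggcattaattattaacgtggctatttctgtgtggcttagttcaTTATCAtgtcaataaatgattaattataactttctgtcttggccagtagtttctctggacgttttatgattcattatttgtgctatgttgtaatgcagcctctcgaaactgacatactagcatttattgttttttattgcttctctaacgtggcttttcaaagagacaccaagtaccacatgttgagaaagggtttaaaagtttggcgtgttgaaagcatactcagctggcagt
The Lct window held 2 such hexamers and the Slc10a2 window 1, while the windows of Fabp1 and Fabp6, described below, held 0. A match is a run of letters and not a measured binding site.

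The P36 jejunum libraries held 18459953 to 23731398 counted read pairs and the ileum libraries 12159237 to 21776158. Levels are given as CPM (each count relative to the library's total, scaled by the TMM factors of edgeR) and always in the order of mice 1 to 4. The tissue label matched the cells: 10 epithelium markers summed to between 14340 and 15940 CPM in the jejunum and between 15850 and 20840 CPM in the ileum. Among them Epcam, an epithelial adhesion molecule, was at 1446 to 1582 and 1382 to 2230 CPM. The hemoglobin genes were at 0 in every library. Without Zg16, which goblet cells also make, the pancreatic acinar markers summed to 4.31 to 6.47 CPM in the jejunum and 4.48 to 4.93 CPM in the ileum, with Prss1 and Cpa1 at 0.

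The ileum libraries differed from each other more than the jejunum libraries did. Summed absorptive enterocyte markers stood at 47890, 41980, 37780 and 38560 CPM in the jejunum and at 40660, 16300, 6750 and 18220 CPM in the ileum, so that mouse 1 had the highest and mouse 3 the lowest ileal sum. The 9 Paneth cell markers, led by lysozyme, summed to 3996, 3835, 5177 and 7435 CPM in the jejunum and 5945, 4849, 15190 and 7388 CPM in the ileum, with mouse 3 highest. Across all 13429 tested genes the median SD of log2 levels was 0.237 in the ileum and 0.140 in the jejunum, and 74.6% of genes varied more among the ileum libraries. Among the genes that were more than 4-fold higher in the jejunum, the ileum of mouse 1 had the highest ileal value in 69.2%, against 33.3% of all tested genes, and the ileum of mouse 3 had the lowest in 62.3%, against 33.2%. The same ordering appeared in genes chosen by their regional difference at P6. That choice came from the fit to all 16 libraries, so the P36 libraries shared in its filter and its estimate of the spread. The mean log2 level of 295 genes with a jejunal difference at P6 minus that of 576 genes with an ileal one was 2.09, 2.09, 1.77 and 1.89 in the P36 jejunum and 0.84, 0.42, 0.04 and 0.32 in the ileum, so that the ileum of mouse 1 lay nearest to the jejunum and that of mouse 3 farthest away. The part of these marker levels in the regional differences was not tested. In whole epithelium, fewer cells of a type and less RNA per cell cannot be told apart.

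**Figure D1:**
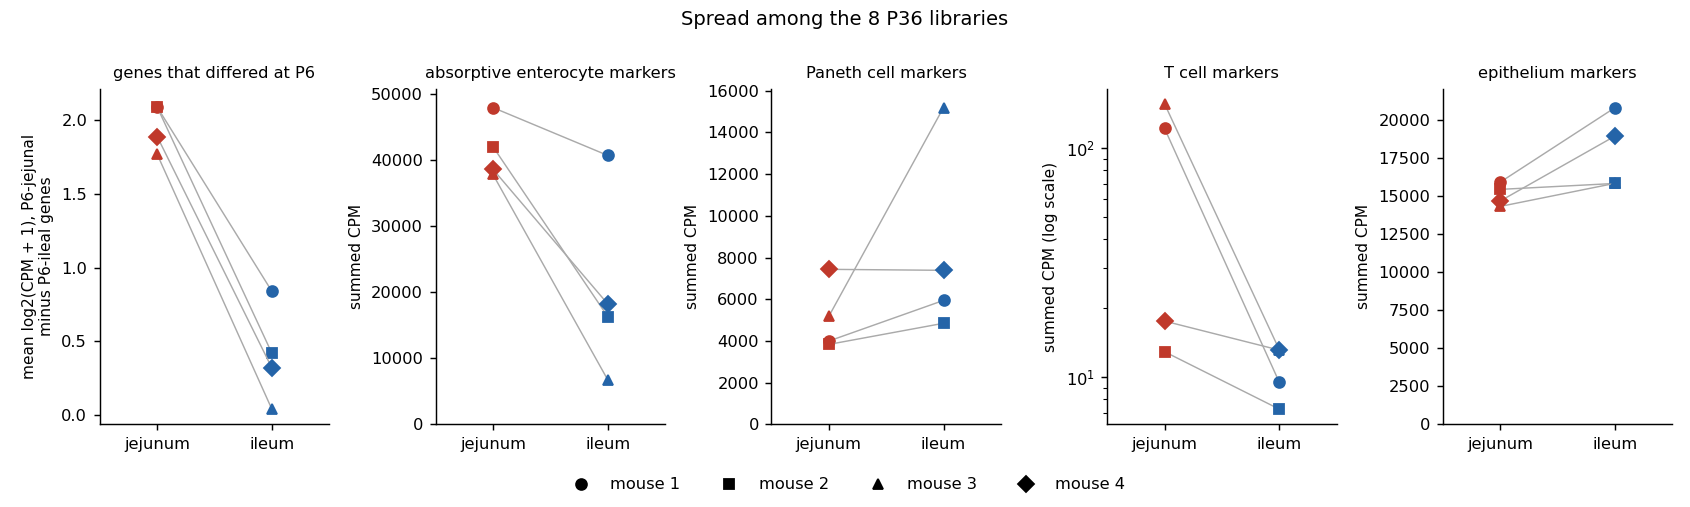
Values of the 8 P36 libraries: from left, the mean log2(CPM + 1) of the 295 P6-jejunal genes minus that of the 576 P6-ileal genes, then summed CPM of absorptive enterocyte, Paneth cell, T cell (log axis) and epithelium markers. Red points are jejunum, blue points ileum, marker shapes the 4 mice, and grey lines join the regions of a mouse; the ileum of mouse 1 sits at 0.84 and that of mouse 3 at 0.04 in the first panel, while all 4 jejunum libraries sit between 1.77 and 2.09.

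Between the P36 regions 2163 of 13429 tested genes (16.1%) had an adjusted p below 0.05 in edgeR's quasi-likelihood test. Of these, 1115 genes (8.30% of those tested) were higher in the jejunum and 1048 (7.80%) were higher in the ileum. With a log2FC beyond 2 in size as well, which is a 4-fold difference, there were 484 genes (3.60%), 276 of them jejunal (2.06%) and 208 ileal (1.55%). The 4 jejunum and 4 ileum values did not overlap in 3615 tested genes (26.9%), and they did not overlap in 455 of the 484. All 4 mice showed the same direction in 480 of these 484 and in 2134 of the 2163 past the test alone, against 6422 of all 13429 tested genes; the genes of the first 2 counts were selected for a regional difference on the same libraries. The direction of the smaller differences depended on the scaling: with library totals in place of TMM factors, 896 calls were jejunal and 1473 ileal, so that the jejunal share of the calls went from 51.5% to 37.8% and the median log2FC of all tested genes from -0.04 to -0.18. Without the jejunum library of mouse 1, 1418 genes passed, 653 of them ileal, and with the mouse as a block 2437 did, of which 2014 were among the 2163. In the gene lists below, a count of 1 or 2 often changed when 1 library was left out, and larger counts that moved by over 1.5 times are given with that library. Each list count stands beside the 8.30% of all tested genes higher in the jejunum and the 7.80% higher in the ileum.

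The genes over 4-fold higher in the jejunum took 2.89% to 3.85% of the counts of a jejunum library and 0.179% to 0.699% of an ileum library. The 208 ileal genes took 1.28% to 1.84% of an ileum library and 0.113% to 0.140% of a jejunum library. On a per-length scale (TPM, from the exon lengths in the files), the most abundant transcripts of both regions were Reg3b, at a mean of 67940 TPM in the jejunum and 86730 TPM in the ileum, and Reg3g, and neither passed the test. The third most abundant transcript was Fabp2, with 15270 TPM, in the jejunum and Fabp6, with 25720 TPM, in the ileum.

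**Figure D2:**
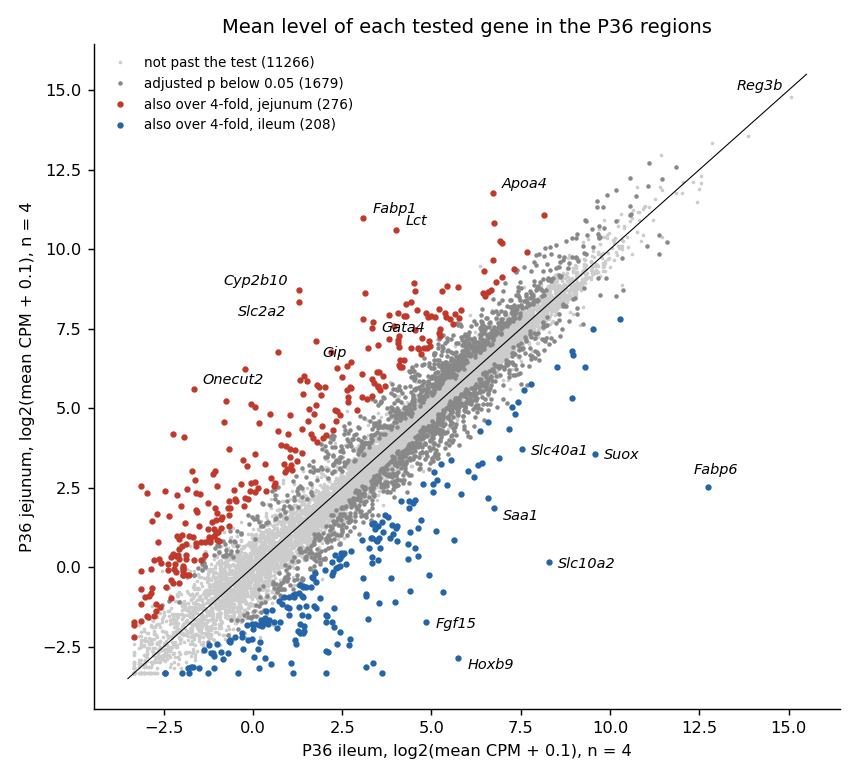
Mean level of each of the 13429 tested genes in the P36 ileum (x axis) and P36 jejunum (y axis), both as log2(mean CPM + 0.1) over 4 libraries; the line marks equal levels. Red points are the 276 genes more than 4-fold higher in the jejunum and blue points the 208 higher in the ileum at an adjusted p below 0.05, dark grey points the other genes past the test; Fabp1 and Lct stand far above the line, and Fabp6 and Slc10a2 far below it.

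Transcription factors with a known regional pattern differed in both directions. Of 25 tested members of the list, 6 were higher in the jejunum (4 of them over 4-fold) and 7 in the ileum (5 over 4-fold), with a median log2FC of -0.27. Gata4 stood at 186, 193, 175 and 174 CPM in the jejunum and at 31.6, 5.56, 0.735 and 2.29 CPM in the ileum (log2FC 4.17, SE 0.87, adjusted p = 0.0037). The groups did not overlap, and the ileum of mouse 1 was far above the other 3; without it the log2FC was 6.01. Onecut2, a homeodomain factor of the proximal intestine, was at 59.2, 59.9, 34.4 and 40.2 CPM and 0.166, 0.3402, 0.122 and 0.237 CPM (log2FC 7.82, SE 0.64, adjusted p = 9.2e-07), a difference that no single library carried. Without the ileum libraries of mice 1 and 3 together, an alternative chosen after seeing the data, the Gata4 value was 5.51. Nr1i3, the nuclear receptor CAR that responds to foreign compounds, was at 73.6, 59.5, 57.2 and 62.5 CPM and 11.6, 3.799, 2.33 and 4.43 CPM (log2FC 3.52, SE 0.39, adjusted p = 1.8e-05), with 4.18 without the ileum of mouse 1. On the ileal side, Nr1h4, which encodes the bile acid receptor FXR, had nearly the same level in all mice of a region, 49.1, 58.3, 52.8 and 55.6 CPM in the jejunum and 215, 215, 217 and 233 CPM in the ileum (log2FC -2.03, SE 0.13, adjusted p = 9.3e-08).

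Genes of the Hoxb cluster, which specify position along the body axis, were higher in the ileum, some of them with few or no counts in the jejunum. Hoxb9 (chr11:96271330-96276593, plus strand, mm10) was at 0, 0.0441, 0 and 0.107 CPM in the jejunum, which is 3 counts in all, and at 25.1, 49.96, 72.2 and 68.1 CPM in the ileum, or 3962 counts. The fitted value rests on those few counts, at -10.27 and at -11.24 without the jejunum of mouse 4. The ratio of the summed counts, each relative to the scaled totals of its 4 libraries, was 1463, with an exact 95% interval of 500.3 to 7097 that covers counting error only (adjusted p = 1.7e-05). Its neighbour Hoxb8 had 1 count in the jejunum and 3.81, 9.53, 10.9 and 11.6 CPM in the ileum (adjusted p = 4.2e-05; log2FC -8.90, and -10.50 without the jejunum of mouse 4). Gm53, a transcript inside the cluster at chr11:96251660-96264484, had 0 counts in the 4 jejunum libraries and 5.53, 11.2, 15.8 and 15.9 CPM in the ileum, at least 327-fold higher against a floor of 3 counts over the group (adjusted p = 0.0014). Hoxb7 was at 0.176 to 0.673 CPM in the jejunum and 4.37 to 16.9 CPM in the ileum (log2FC -4.94, SE 0.73, adjusted p = 0.00023). Hoxb6 was at 0.0441 to 0.539 and 7.68 to 24.9 CPM (log2FC -5.40, SE 0.76, adjusted p = 0.00015). In each of these genes the ileum of mouse 1 was the lowest ileal library, and it was still above every jejunum library. In all, 10 neighbouring genes over chr11:96133786-96347930 were more than 4-fold higher in the ileum: Ttll6, Gm53, Mir196a-1 and Hoxb9, Hoxb8, Hoxb7, Hoxb6, Hoxb5, Hoxb4 and Hoxb3.

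Genes of bile acid recovery had large ileal differences. Of 13 tested members, 6 were higher in the ileum, 4 of them over 4-fold, and 2 in the jejunum, with a median log2FC of -1.28. Slc10a2 is the apical sodium-dependent bile acid transporter (chr8:5085623-5105232 as counted, minus strand). The window around its RefSeq start, shown above, does not overlap these coordinates. Slc10a2 was at 1.59, 1.06, 0.988 and 0.426 CPM in the jejunum and at 559.7, 311, 158 and 211 CPM in the ileum (log2FC -8.25, SE 0.74, adjusted p = 2.4e-06). Fabp6, the protein that binds bile acids inside the enterocyte (chr11:43596040-43601562, minus strand), was at 1.71, 7.85, 4.76 and 8.21 CPM and 9114, 6647, 3727 and 7683 CPM (log2FC -10.23, SE 1.09, adjusted p = 1.2e-05). Every ileum library lay far above every jejunum library for both genes. The basolateral exporter is made of the subunits Slc51a and Slc51b. Slc51a was at 357, 373, 349.5 and 395 CPM in the jejunum and 1485, 1069, 646 and 1362 CPM in the ileum (log2FC -1.63, SE 0.26, adjusted p = 0.00049). Slc51b was at 146, 135, 108 and 129.5 and 416, 271, 222 and 353 CPM (log2FC -1.28, SE 0.20, adjusted p = 0.00032). Both subunits were well above 0 in the jejunum, unlike Slc10a2 and Fabp6.

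Fgf15, the hormone that FXR induces in enterocytes and that restrains bile acid synthesis in the liver (chr7:144896532-144900951, plus strand), was at 0.0588, 0.0441, 0.225 and 0.4796 CPM in the jejunum and at 82.3, 6.24, 1.59 and 25.2 CPM in the ileum (log2FC -7.13, SE 1.20, adjusted p = 0.00066). The groups did not overlap, but the ileum values spread widely, with mouse 1 highest and mouse 3 lowest; without the ileum of mouse 1 the log2FC was -5.72, and without the jejunum of mouse 4 it was -7.92. Without the ileum libraries of mice 1 and 3 it was -6.25. The receptor Nr1h4 showed no such spread. In the other direction, Abcc2, an apical export pump for conjugates, was at 431, 462, 252 and 318 CPM in the jejunum and 193, 72.02, 19.2 and 75.7 CPM in the ileum (log2FC 2.02, SE 0.47, adjusted p = 0.0079; 2.72 without the ileum of mouse 1). Cubn, the receptor for vitamin B12 bound to intrinsic factor, did not pass: its levels were 320.0, 179.8, 269 and 223 CPM in the jejunum and 1019, 457, 64.00 and 462 CPM in the ileum (log2FC -1.01, SE 0.50, adjusted p = 0.19). The ileum of mouse 3 lay below every jejunum library, and without it Cubn passed (log2FC -1.38, adjusted p = 0.0051). Without the ileum of mouse 1 its log2FC was -0.40, and without both of these libraries -0.89 (adjusted p = 0.025). Of the 10 tested receptors for vitamin B12 and other ligands, the only one that passed was Abcc1, an exporter of vitamin B12 (log2FC -0.82, SE 0.19, adjusted p = 0.0070).

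Suox, the mitochondrial sulfite oxidase (chr10:128669887-128673918), had the smallest adjusted p of all tested genes, with 11.4, 11.8, 12.4 and 11.6 CPM in the jejunum and 832, 651, 655 and 900.4 CPM in the ileum (log2FC -6.01, SE 0.22, adjusted p = 2.3e-10). The values of a region lay close together and the regions were far apart. Slc25a48, a mitochondrial carrier, was at 0.353, 0.794, 0.404 and 0.373 CPM and 71.2, 32.8, 8.903 and 45.7 CPM (log2FC -6.32, SE 0.68, adjusted p = 1.2e-05). Mal, a membrane protein of apical sorting, was at 0.471, 0.397, 0.539 and 0.586 and 21.1, 15.3, 19.4 and 28.97 CPM (log2FC -5.39, SE 0.43, adjusted p = 7.5e-07). Rnf180, a ubiquitin ligase, had 2 counts in the jejunum libraries together and 8.57, 9.64, 11.3 and 11.2 CPM in the ileum (adjusted p = 2.8e-07). Card9, an adaptor of fungal recognition best known from myeloid cells, was at 0.5296, 0.794, 0.763 and 0.906 CPM in the jejunum and 55.4, 27.2, 8.33 and 30.4 CPM in the ileum (log2FC -5.32, SE 0.63, adjusted p = 2.9e-05). Its ileal values followed the order of the mice seen for Fgf15, with mouse 1 highest and mouse 3 lowest. The 13 myeloid markers summed to 33.3 to 83.3 CPM in the jejunum and 45.9 to 90.3 CPM in the ileum, with none at 0 in all libraries, and their part in the Card9 difference was not tested.

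**Figure D3:**
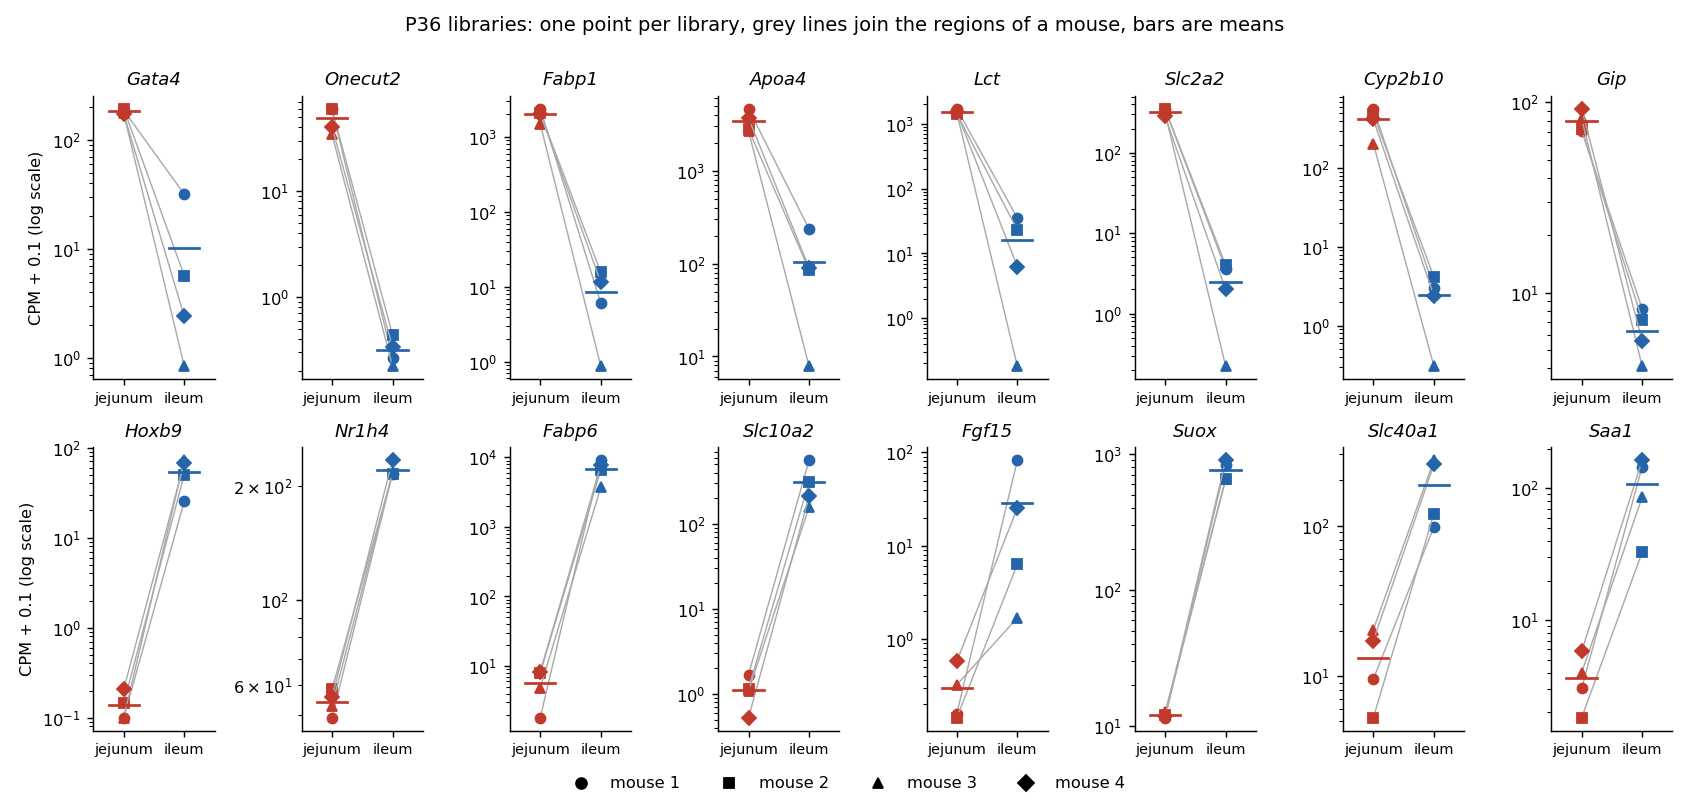
CPM + 0.1 on a log axis in the 8 P36 libraries for 8 genes higher in the jejunum (upper panels) and 8 higher in the ileum (lower panels); shapes mark the 4 mice, grey lines join the regions of a mouse and bars are means. The regions do not overlap for any of the 16 genes, and for Gata4, Apoa4 and Lct the ileum of mouse 1 is highest and that of mouse 3 lowest.

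Most genes of fat absorption were higher in the jejunum. Of 33 tested genes listed for fatty acid uptake and chylomicron assembly, 22 were higher in the jejunum, 7 of them over 4-fold, and 1, the acetyl-CoA thiolase Acat2, was higher in the ileum (log2FC -0.71, SE 0.14, adjusted p = 0.0032). Acat2 is an enzyme of sterol synthesis and not of chylomicron assembly, though the list held it. The median log2FC was 1.19, against -0.04 over all tested genes. Among uptake genes, Cd36, a fatty acid translocase, was at 108, 65.6, 53.1 and 73.97 CPM in the jejunum and 0.9399, 0.964, 0.0817 and 1.03 CPM in the ileum (log2FC 6.71, SE 0.67, adjusted p = 6.1e-06). Fabp1, the liver-type fatty acid binding protein (chr6:71199888-71205023, plus strand), was at 2386, 2100, 1494 and 2052 CPM and 5.97, 15.5, 0.776 and 11.4 CPM (log2FC 7.91, SE 1.05, adjusted p = 9.0e-05). Without the ileum libraries of mice 1 and 3 the Fabp1 value was 7.22. Slc27a2, a very long chain acyl-CoA synthetase, was at 86.3, 76.7, 58.05 and 62.3 CPM and 16.9, 23.6, 26.96 and 17.02 CPM (log2FC 1.74, SE 0.19, adjusted p = 1.1e-05). For Cd36 and Fabp1 the ileum of mouse 3 was the lowest of its group by a wide margin, while for Slc27a2 it was the highest. Scp2, a sterol carrier protein, differed less (568 to 741 against 273 to 397 CPM; log2FC 1.03, SE 0.15, adjusted p = 0.00016).

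In the assembly of chylomicrons, the particles that carry fat out of the enterocyte, 16 of 21 tested genes were higher in the jejunum. Apoa4, an apolipoprotein of newly made chylomicrons, was at 4655, 2799, 2668 and 3696 CPM in the jejunum and 235, 85.1, 7.76 and 89.8 CPM in the ileum (log2FC 5.05, SE 0.72, adjusted p = 0.00018). Apoc3 was at 496, 376, 536 and 550.3 CPM and 46.2, 20.1, 5.02 and 20.3 CPM (log2FC 4.42, SE 0.52, adjusted p = 2.7e-05). Leaving out the ileum of mouse 1 made these values 5.83 and 5.02. Mttp, which loads lipid onto apolipoprotein B, was at 2585 to 3927 CPM in the jejunum and 390.3 to 1866 CPM in the ileum (log2FC 1.79, SE 0.36, adjusted p = 0.0026). Dgat1, which makes triglyceride, was at 1217 to 1390 and 236 to 867 CPM (log2FC 1.32, SE 0.27, adjusted p = 0.0029). The intestinal fatty acid binding protein Fabp2 and the structural apolipoprotein Apob did not pass. Fabp2 was at 10190, 8130, 6461 and 7121 CPM in the jejunum and 7270, 1576, 471 and 1725 CPM in the ileum (log2FC 1.53, SE 0.60, adjusted p = 0.099). Apob was at 4758, 4150, 3085 and 3750 and 4212, 1172, 483 and 1054 CPM (log2FC 1.19, SE 0.50, adjusted p = 0.13). In both, the ileum of mouse 1 overlapped the jejunum and the other 3 ileum libraries lay below it. Without that library the log2FC was 2.67 for Fabp2 (adjusted p = 0.0013) and 2.12 for Apob (adjusted p = 0.0011). Leaving out the ileum of mouse 3 as well made them 2.27 and 1.82 (adjusted p = 0.0042 and 0.0052), and with the mouse as a block it was 0.014 and 0.029.

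Genes of fatty acid oxidation were less one-sided, with 7 of 28 higher in the jejunum, 1 higher in the ileum and a median log2FC of 0.22. Ppargc1a, a coactivator of mitochondrial genes, was at 122, 129, 108 and 117 CPM in the jejunum and 35.8, 21.9, 18.2 and 21.8 CPM in the ileum (log2FC 2.28, SE 0.43, adjusted p = 0.0017). Ehhadh, a peroxisomal enzyme, was at 148 to 209 and 78.7 to 104 CPM (log2FC 1.0, SE 0.13, adjusted p = 7.0e-05). The gene higher in the ileum was Cpt1a, the mitochondrial gate for long-chain fatty acids, at 139, 227, 191 and 193 CPM in the jejunum and 208, 343, 303 and 268 CPM in the ileum (log2FC -0.58, SE 0.17, adjusted p = 0.024). Its groups overlapped, and the call was lost without the ileum of mouse 2 (adjusted p = 0.11) or 3 (0.057) and without the jejunum of mouse 1 (0.091), 3 (0.067) or 4 (0.054). The Cpt1a call was also lost with only the P36 libraries fitted. The absorptive enterocyte sums given above moved with the lipid genes in the ileum libraries. Fabp2 is itself 1 of those markers, so the sums and the lipid genes are not independent. The part of the sums in these differences was not tested.

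Cholesterol synthesis had the opposite direction. Of 23 tested genes of synthesis and uptake, 14 were higher in the ileum and 0 in the jejunum, none of them over 4-fold, with a median log2FC of -0.95. Sqle, squalene epoxidase, was at 99.3, 96.98, 78.6 and 90.2 CPM in the jejunum and 348, 213, 164 and 299 CPM in the ileum (log2FC -1.49, SE 0.21, adjusted p = 0.00013). Fdft1, squalene synthase, was at 76.3, 68.6, 58.6 and 72.4 CPM and 220.3, 137, 135 and 218 CPM (log2FC -1.36, SE 0.18, adjusted p = 8.5e-05). Fdps, which makes its substrate, was at 82.97 to 119.8 and 189 to 251 CPM (log2FC -1.11, SE 0.15, adjusted p = 0.00013). For these genes all ileum libraries lay above all jejunum libraries. Genes of cholesterol efflux did not follow: 2 of 6 were higher in the jejunum and 1 higher in the ileum. Abca1, which loads cholesterol onto apolipoprotein A-I, was at 119.9, 109, 110.3 and 144 CPM and 39.5, 9.53, 6.004 and 12.2 CPM (log2FC 2.85, SE 0.45, adjusted p = 0.00038; 3.72 without the ileum of mouse 1 and 3.48 without those of mice 1 and 3). Abcg5, part of the apical sterol exporter, was at 356 to 421 and 123 to 299 CPM (log2FC 0.96, SE 0.22, adjusted p = 0.0073).

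Sugar digestion and uptake were higher in the jejunum almost throughout. All 4 tested disaccharidases passed in that direction, with a median log2FC of 1.92. Lct, lactase, whose start is shown above (chr1:128284764-128328318, minus strand), was at 1720, 1438, 1497 and 1512 CPM in the jejunum and at 35.3, 22.9, 0.0817 and 6.17 CPM in the ileum (log2FC 6.58, SE 0.97, adjusted p = 0.00023; 7.31 without the ileum of mouse 1). Sis, sucrase-isomaltase, was at 4741, 5722, 4578 and 4422 CPM and 2967, 1441, 772 and 892 CPM (log2FC 1.68, SE 0.40, adjusted p = 0.0093). Mgam, maltase-glucoamylase, was at 4104, 4612, 4001 and 3517 and 3196, 2072, 1274 and 2032 CPM (log2FC 0.92, SE 0.23, adjusted p = 0.011). Sis and Mgam thus remained among the abundant transcripts of the ileum, where Lct was low in every mouse. Treh, trehalase, was at 554, 380.4, 284 and 344 CPM in the jejunum and 221, 55.6, 12.2 and 59.8 CPM in the ileum (log2FC 2.16, SE 0.64, adjusted p = 0.030), and its call was lost without the ileum of mouse 2 (adjusted p = 0.091) or 4 (0.088) and without the jejunum of mouse 1 (0.086), 2 (0.056) or 4 (0.051). Without the ileum of mouse 1 the Treh value was 3.20, and without those of mice 1 and 3 it was 2.76. The Treh call was also lost with only the P36 libraries fitted.

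All 8 tested sugar transporters were higher in the jejunum, 6 of them over 4-fold, with a median log2FC of 3.05. The basolateral glucose and fructose transporter Slc2a2 (chr3:28697903-28728360, plus strand) was at 347, 353, 312 and 285 CPM in the jejunum and 3.54, 3.91, 0.122 and 1.899 CPM in the ileum (log2FC 7.12, SE 0.58, adjusted p = 9.2e-07). The fructose transporter Slc2a5 was at 236, 335, 186 and 204 CPM and 56.5, 31.7, 9.68 and 29.4 CPM (log2FC 2.92, SE 0.38, adjusted p = 7.5e-05). The sodium-glucose transporter Slc5a1 was at 3988, 4024, 3568 and 3378 CPM and 2084, 985, 456 and 1082 CPM (log2FC 1.70, SE 0.32, adjusted p = 0.0016), so that it stayed abundant in the ileum while Slc2a2 did not. Of 14 genes of fructose and glucose metabolism, 8 were higher in the jejunum and 0 higher in the ileum; the jejunal count was 5 without the ileum libraries of mice 1 and 3. G6pc, which releases free glucose, was at 24.6, 92.1, 21.1 and 33.1 CPM and 5.92, 2.495, 1.02 and 5.22 CPM (log2FC 3.57, SE 0.52, adjusted p = 0.00022), with the jejunum of mouse 2 far above the others; without it the log2FC was 2.87.

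Protein digestion was mixed. Among 15 tested brush border peptidases and phosphatases, 4 were higher in the jejunum and 2 higher in the ileum, with a median log2FC of 0.49. Ace, angiotensin-converting enzyme, was at 2796, 2113, 1685 and 2020 CPM in the jejunum and 671, 173, 70.2 and 218 CPM in the ileum (log2FC 2.93, SE 0.48, adjusted p = 0.00051; 3.81 without the ileum of mouse 1). Mep1a, the alpha subunit of meprin, went the other way, at 245, 158, 230.1 and 261 CPM and 1980, 988, 636 and 1368 CPM (log2FC -2.48, SE 0.28, adjusted p = 1.8e-05). Akp3, an intestinal alkaline phosphatase, was low in both regions, at 1.76 to 2.72 CPM in the jejunum and 0.204 to 0.3402 CPM in the ileum (log2FC 3.19, SE 0.35, adjusted p = 1.6e-05). Anpep, aminopeptidase N and the most abundant of these genes, did not pass, at 12050, 10670, 9061 and 9797 CPM and 14000, 6213, 2371 and 7314 CPM (log2FC 0.48, SE 0.36, adjusted p = 0.43). Without the ileum of mouse 1, Anpep passed (log2FC 0.97, adjusted p = 0.034) and 10 of the 15 genes were higher in the jejunum.

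Of 20 tested transporters of peptides and amino acids, 7 were higher in the jejunum and 4 higher in the ileum, with a median log2FC of 0.01. Slc36a1, a proton-coupled carrier of small amino acids, was at 558, 459, 395 and 404 CPM in the jejunum and 96.7, 29.4, 16.2 and 29.4 CPM in the ileum (log2FC 3.40, SE 0.40, adjusted p = 3.2e-05; 4.18 without the ileum of mouse 1). Slc7a8, a basolateral exchanger of neutral amino acids, was at 726, 615, 567 and 648 CPM and 171, 73.3, 37.7 and 75.03 CPM (log2FC 2.84, SE 0.34, adjusted p = 3.7e-05). The peptide transporter Slc15a1 was at 1448, 1092, 806 and 829 CPM and 714, 214, 38.1 and 196 CPM (log2FC 1.84, SE 0.55, adjusted p = 0.032), and its call was lost without the ileum of mouse 2 (adjusted p = 0.090) or 4 (0.093) and without the jejunum of mouse 1 (0.093) or 2 (0.063). Without the ileum of mouse 1 the value was 2.80. The Slc15a1 call was also lost with only the P36 libraries fitted. On the ileal side, Slc1a1, a carrier of glutamate and aspartate, was at 87.97, 98.97, 105 and 88.5 CPM in the jejunum and 276, 210.4, 178 and 283 CPM in the ileum (log2FC -1.31, SE 0.21, adjusted p = 0.00041). Slc6a14, which takes up neutral and cationic amino acids, was at 0.765, 0.353, 0.943 and 0.693 CPM and 21.9, 3.91, 16.8 and 14.96 CPM (log2FC -4.38, SE 0.75, adjusted p = 0.00077). The ileum of mouse 2 was the lowest of its group for Slc6a14, and no jejunum library reached it. Without the ileum libraries of mice 1 and 3 the value was -3.76.

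The metabolism of foreign compounds formed a further jejunal group. Of 37 tested cytochrome P450 genes, 17 were higher in the jejunum, 13 of them over 4-fold, and 1, the sterol demethylase Cyp51, was higher in the ileum. Cyp2b10, the classical target of CAR (chr7:25897658-25926624, plus strand), was at 571, 489, 205 and 418 CPM in the jejunum and 2.93, 4.03, 0.204 and 2.29 CPM in the ileum (log2FC 7.50, SE 0.62, adjusted p = 1.0e-06). Cyp2c66 was at 42.7, 48.4, 21.9 and 34.9 CPM and 0.221, 0.6805, 0.449 and 0.633 CPM (log2FC 6.23, SE 0.37, adjusted p = 5.1e-08). Cyp3a11, the main drug-metabolizing member of its family, was at 359.7, 231, 123 and 183 and 20.4, 9.13, 0.368 and 3.799 CPM (log2FC 4.74, SE 0.72, adjusted p = 0.00031; 5.68 without the ileum of mouse 1). Cyp2c68 was at 116, 96.4, 99.7 and 106 CPM in the jejunum and 32.6, 19.9, 23.9 and 27.9 CPM in the ileum (log2FC 2.01, SE 0.24, adjusted p = 2.8e-05). The Cyp2c and Cyp3a genes are near copies of each other, so that reads could be split between members. Cyp2b10 and Cyp3a11 were lowest in mouse 3 in both regions.

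Conjugating and related enzymes were also mostly jejunal: 26 of 56 tested genes were higher there, 6 were higher in the ileum, and the median log2FC was 0.62. All 19 glutathione transferases had a positive log2FC, and 12 of them passed. Ugt2a3, a glucuronosyltransferase, was at 144, 125, 129 and 150.5 CPM in the jejunum and 5.197, 2.72, 2.49 and 2.69 CPM in the ileum (log2FC 5.38, SE 0.30, adjusted p = 2.7e-08). Adh1, a class I alcohol dehydrogenase, was at 296, 273, 212 and 232 CPM and 23.4, 13.3, 14.1 and 15.3 CPM (log2FC 3.94, SE 0.26, adjusted p = 1.4e-07). Ephx2, soluble epoxide hydrolase, was at 382, 235, 204 and 266 and 41.9, 20.5, 14.1 and 20.5 CPM (log2FC 3.48, SE 0.34, adjusted p = 4.9e-06). All jejunum libraries lay above all ileum libraries for these genes, and the ileum of mouse 1 was the highest of its group. Gstm1 was at 53.5 to 126 CPM in the jejunum and 13.7 to 19.4 CPM in the ileum (log2FC 2.41, SE 0.24, adjusted p = 5.1e-06) and the carboxylesterase Ces2g at 25.6 to 36.3 and 4.48 to 5.59 CPM (log2FC 2.60, SE 0.25, adjusted p = 4.4e-06), both with near-identical relatives. Nfe2l2, the factor NRF2 that drives many such enzymes, was at 345 to 414 CPM in the jejunum and 158 to 178 CPM in the ileum (log2FC 1.16, SE 0.12, adjusted p = 5.6e-06), and among 12 xenobiotic receptors and pumps 3 were higher in each region.

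Steroid metabolism had members on both sides, with 5 of 21 higher in each region; the jejunal count was 3 without the ileum of mouse 3 or 4 or the jejunum of mouse 1 or 2. Hsd11b2, which inactivates glucocorticoids, was at 5.36, 4.85, 6.74 and 6.71 CPM in the jejunum and 29.2, 47.5, 50.03 and 46.3 CPM in the ileum (log2FC -2.87, SE 0.37, adjusted p = 6.2e-05). Hsd3b3, a hydroxysteroid dehydrogenase with near-identical relatives, was at 1.35, 1.63, 3.41 and 1.39 CPM and 4.81, 16.3, 25.6 and 13.6 CPM (log2FC -2.94, SE 0.43, adjusted p = 0.00021). Of 24 phospholipases and prostaglandin enzymes, 6 were higher in the jejunum and 8 higher in the ileum, a count that was 5 without the ileum of mouse 4 or the jejunum of mouse 1 or 3. Pla2g4c, a cytosolic phospholipase, was at 1.57 to 1.94 CPM in the jejunum and 8.57 to 14.2 CPM in the ileum (log2FC -2.67, SE 0.24, adjusted p = 2.6e-06). Ptgr1, which breaks down prostaglandins and leukotriene B4, was at 124 to 165 and 30.4 to 48.6 CPM (log2FC 1.98, SE 0.17, adjusted p = 1.2e-06).

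Several micronutrient carriers separated the regions. Slc40a1, ferroportin, the basolateral iron exporter (chr1:45908070-45925594, minus strand), was at 9.41, 5.16, 20.2 and 17.1 CPM in the jejunum and 97.9, 120.2, 272 and 256 CPM in the ileum (log2FC -3.85, SE 0.46, adjusted p = 3.7e-05). Slc11a2, the apical iron importer, did not pass, with 83.3, 81.7, 91.3 and 100.5 CPM and 79.1, 53.2, 46.6 and 82.7 CPM (log2FC 0.45, SE 0.19, adjusted p = 0.12). The importer thus had overlapping values where the exporter had none. Epas1, the hypoxia factor HIF-2 alpha that is known to act on iron genes, was at 9.71 to 11.9 CPM in the jejunum and 30.8 to 41.8 CPM in the ileum (log2FC -1.74, SE 0.28, adjusted p = 0.00049). Over the iron list, 2 of 10 tested genes were higher in each region. Slc46a1, which imports folate and heme, was at 51.6, 24.6, 39.5 and 45.1 CPM in the jejunum and 12.8, 9.81, 12.01 and 16.1 CPM in the ileum (log2FC 1.67, SE 0.35, adjusted p = 0.0042).

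Among 12 tested carriers of folate and water-soluble vitamins, 5 were higher in the jejunum and 0 higher in the ileum, with a median log2FC of 0.47. Slc23a1, the sodium-dependent transporter of vitamin C, was at 135, 121, 80.8 and 94.1 CPM in the jejunum and 4.09, 1.47, 0.163 and 0.396 CPM in the ileum (log2FC 6.13, SE 0.60, adjusted p = 4.6e-06). Slc19a3, a thiamine transporter, was at 8.47, 5.21, 2.02 and 4.05 CPM and 0.498, 0.227, 0.0408 and 0.158 CPM (log2FC 4.42, SE 0.52, adjusted p = 2.7e-05). In both, the ileum of mouse 1 was the highest and that of mouse 3 the lowest of its group; without the former the log2FC values were 7.34 and 5.17. With the latter also left out, Slc23a1 stood at 6.76. For vitamin A, 5 of 18 genes were higher in the jejunum and 2 higher in the ileum. Rbp2, which binds retinol inside enterocytes, was at 2331, 1779, 1331 and 1860 CPM in the jejunum and 193, 106, 10.2 and 124 CPM in the ileum (log2FC 4.08, SE 0.60, adjusted p = 0.00021). Rdh7, a retinol dehydrogenase, was at 112, 83.3, 74.3 and 78.1 and 12.7, 5.501, 2.17 and 5.94 CPM (log2FC 3.73, SE 0.39, adjusted p = 9.4e-06).

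Calcium and phosphate handling was split between the regions, with 2 of 11 genes higher in the jejunum and 3 higher in the ileum. S100g, the calcium-binding calbindin-D9k, was at 1.71, 1.94, 2.78 and 1.71 CPM in the jejunum and 10.4, 28.8, 24.6 and 20.02 CPM in the ileum (log2FC -3.35, SE 0.28, adjusted p = 1.2e-06). Cldn2, a cation-permeable claudin, was at 109, 121, 111 and 107 CPM and 372, 537, 494 and 543 CPM (log2FC -2.12, SE 0.17, adjusted p = 8.0e-07). Cldn8, a sealing claudin, was at 1.18, 0.927, 1.62 and 0.533 and 8.85, 8.68, 15.1 and 11.9 CPM (log2FC -3.38, SE 0.25, adjusted p = 4.1e-07). Both claudins were higher in every ileum library. Of 18 tested tight junction genes, 2 (11.1%) were higher in the ileum and 1 (5.6%) in the jejunum, near the 7.80% and 8.30% of all tested genes. Among 14 zinc and copper genes 3 (21.4%) were higher in the jejunum and 1 (7.1%) higher in the ileum, and Atp7b, a copper exporter, was at 22.1 to 25.8 CPM in the jejunum and 3.43 to 7.796 CPM in the ileum (log2FC 2.31, SE 0.23, adjusted p = 5.6e-06).

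Of 31 tested genes of sodium, chloride and bicarbonate transport, 8 were higher in the jejunum and 5 higher in the ileum, with a median log2FC of 0.41. The ileal count was 3 when any P36 library other than the ileum of mouse 1 was left out. Slc9a3, the apical sodium-proton exchanger NHE3, was at 156, 137, 116 and 104 CPM in the jejunum and 29.4, 5.16, 4.41 and 5.78 CPM in the ileum (log2FC 3.51, SE 0.49, adjusted p = 0.00014). The ileum of mouse 1 was well above the other 3, and the value was 4.65 without it and 4.55 without those of mice 1 and 3. Car2, carbonic anhydrase 2, was at 24.5, 23.7, 25.6 and 19.9 CPM and 0.221, 0.737, 0.286 and 0.633 CPM (log2FC 5.67, SE 0.45, adjusted p = 6.6e-07; 5.07 without the ileum libraries of mice 1 and 3). For nucleosides and purines, 7 of 19 genes were higher in the jejunum and 1 higher in the ileum, among them the concentrative transporter Slc28a1 at 83.7, 60.4, 45.9 and 44.1 CPM in the jejunum and 7.19, 1.99, 0 and 0.475 CPM in the ileum (log2FC 4.59, SE 0.82, adjusted p = 0.0011). The jejunal count was 4 without the ileum of mouse 2 or 3. The Slc28a1 value was 6.19 without the ileum of mouse 1 and 5.50 without those of mice 1 and 3. Arg2, a mitochondrial arginase, was at 378 to 517 CPM in the jejunum and 28.8 to 90.95 CPM in the ileum (log2FC 3.05, SE 0.48, adjusted p = 0.00037), 1 of 2 genes higher in the jejunum among 12 of arginine synthesis and the urea cycle. Adora2b, an adenosine receptor, was at 19.5, 17.4, 13.2 and 18.4 CPM and 0.221, 0.3402, 0 and 0.0791 CPM (log2FC 6.75, SE 0.53, adjusted p = 6.6e-07; 7.46 without the ileum of mouse 2), and the secreted nuclease Dnase1 at 446, 390.2, 335 and 417 and 24.9, 5.33, 0.327 and 4.19 CPM (log2FC 5.51, SE 0.76, adjusted p = 0.00012; 6.96 without the ileum of mouse 1 and 6.37 without those of mice 1 and 3).

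**Figure D4:**
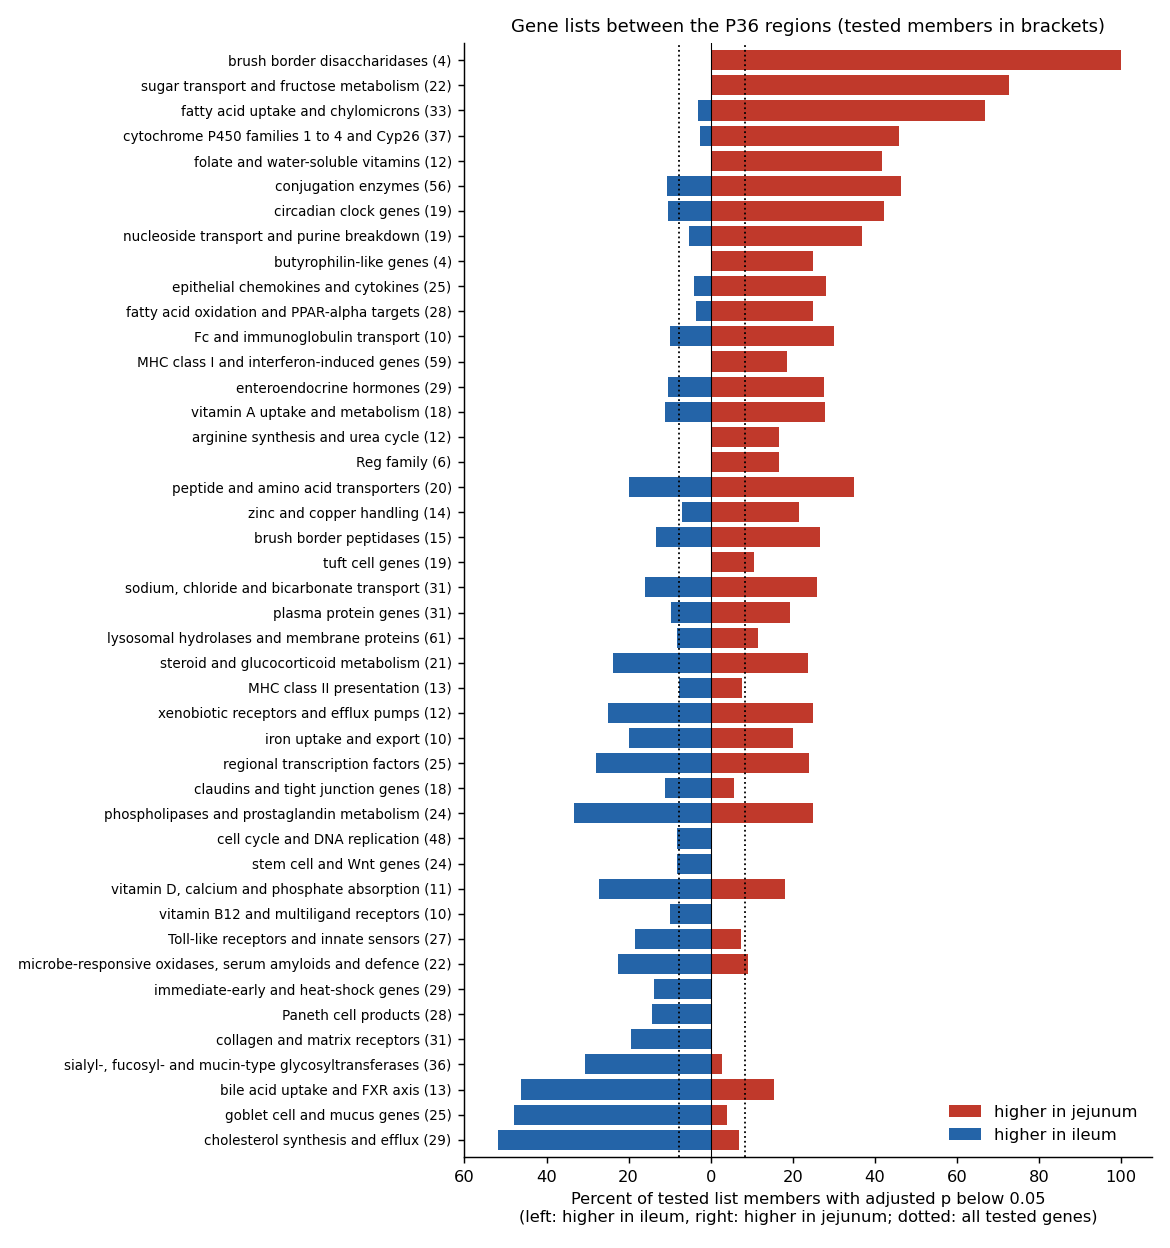
Percent of the tested members of each gene list past the test, to the right for higher in the P36 jejunum and to the left for higher in the P36 ileum, with the number of tested members in brackets and dotted lines at the shares of all tested genes, 8.30% and 7.80%. The disaccharidases reach 100% and the sugar genes 72.7% on the jejunal side, and cholesterol synthesis and efflux reaches 51.7% and goblet cell genes 48.0% on the ileal side.

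Goblet cell genes were higher in the ileum. Of 25 tested genes, 12 passed in that direction and 1, the membrane mucin Muc4, in the other, with a median log2FC of -0.75. Agr2, which folds mucins, was at 364, 398, 384 and 377 CPM in the jejunum and 605, 834, 1095 and 837 CPM in the ileum (log2FC -1.15, SE 0.18, adjusted p = 0.00048). Atoh1, the factor of secretory fate, was at 11.3, 12.9, 12.4 and 11.9 and 17.5, 24.7, 32.3 and 32.05 CPM (log2FC -1.13, SE 0.19, adjusted p = 0.00071). Muc2, the main secreted mucin, was at 1226, 1493, 1467 and 1382 CPM in the jejunum and 2967, 2996, 992 and 3715 CPM in the ileum (log2FC -0.94, SE 0.28, adjusted p = 0.032). The ileum of mouse 3 lay below all jejunum libraries for Muc2, and the call was lost under the block (adjusted p = 0.096). It was also lost without the ileum of mouse 1 (0.052), 2 (0.089) or 4 (0.12) and without the jejunum of mouse 1 (0.096), 2 (0.063), 3 (0.069) or 4 (0.074; all adjusted p). The Muc2 call was lost as well with only the P36 libraries fitted, with or without the block. Summed goblet cell markers were at 11550 to 12960 CPM in the jejunum and at 20210, 18240, 13770 and 23850 CPM in the ileum, 4 of 8 markers were higher in the ileum and none was at 0, and their part in the list's difference was not tested. Sugar-chain enzymes that build on mucins and glycolipids followed this direction, with 11 of 36 higher in the ileum and 1 in the jejunum (median log2FC -0.26). The count in the ileum was 5 without the ileum of mouse 3 or the jejunum of mouse 2, 6 without the jejunum of mouse 4 and 3 without that of mouse 1. It was 5 without the ileum libraries of mice 1 and 3. Gcnt1, a branching enzyme, was at 1.47, 0.794, 2.29 and 1.12 CPM in the jejunum and 41.5, 25.7, 6.33 and 19.8 CPM in the ileum (log2FC -4.03, SE 0.56, adjusted p = 0.00014).

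Most Paneth cell products did not pass. Of 28 tested genes 4 were higher in the ileum and 0 in the jejunum, with a median log2FC of -0.59; the ileal count was 2 without the ileum of mouse 3 or those of mice 1 and 3, 1 without the jejunum of mouse 1 or 2, and 10 with the mouse as a block. Lyz1, lysozyme, was at 2854, 3082, 3548 and 5725 CPM in the jejunum and 3799, 3672, 10240 and 5505 CPM in the ileum (log2FC -0.61, SE 0.33, adjusted p = 0.24), with the ileum of mouse 3 above all other libraries. Gm15308, a defensin-like gene, was at 2.06, 2.34, 7.99 and 5.17 CPM and 87.4, 43.7, 204 and 51.4 CPM (log2FC -4.45, SE 0.72, adjusted p = 0.00051), and the highest ileum library was again mouse 3. Without it the Gm15308 value was -3.79, and without those of mice 1 and 3 it was -3.43. Defensin genes are near-identical copies, so that reads could be assigned to the wrong member.

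The Reg lectins divided. Reg1 was at 49.9, 27.5, 34.6 and 61.6 CPM in the jejunum and 1.22, 2.83, 3.27 and 2.77 CPM in the ileum (log2FC 4.10, SE 0.40, adjusted p = 5.3e-06). Reg3b, a bactericidal lectin, was at 29630, 24730, 25610 and 31620 CPM and 35630, 24290, 37520 and 39980 CPM (log2FC -0.30, SE 0.64, adjusted p = 0.82). Reg3g, its close relative, was at 12690, 10900, 11240 and 13860 and 16920, 10410, 14080 and 17980 CPM (log2FC -0.29, SE 0.65, adjusted p = 0.83). These libraries overlapped at very high levels in both regions.

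Of 29 tested enteroendocrine genes 8 were higher in the jejunum and 3 higher in the ileum. The ileal calls rested on single libraries: the count was 0 without the ileum of mouse 3 and 1 without the jejunum of mouse 1. The jejunal count was 5 without the ileum of mouse 2 or 4. Gip, the glucose-dependent incretin (chr11:96024545-96030828, plus strand), was at 70.8, 72.1, 82.1 and 92.4 CPM in the jejunum and 8.13, 7.09, 4.002 and 5.46 CPM in the ileum (log2FC 3.69, SE 0.31, adjusted p = 1.2e-06). Cck, cholecystokinin, was at 9.06, 7.46, 9.79 and 10.2 CPM and 1.16, 2.04, 2.53 and 2.22 CPM (log2FC 2.19, SE 0.28, adjusted p = 7.0e-05). Gcg, which encodes GLP-1, was at 18.7, 25.7, 32.1 and 31.6 CPM in the jejunum and 28.97, 52.2, 91.4 and 63.3 CPM in the ileum (log2FC -1.12, SE 0.28, adjusted p = 0.013), a call that was lost without the ileum of mouse 3 (adjusted p = 0.052) or the jejunum of mouse 1 (adjusted p = 0.051). Pyy, peptide YY, was at 0.588, 1.06, 9.03 and 4.53 CPM and 10.8, 9.36, 11.2 and 18.4 CPM (log2FC -1.70, SE 0.63, adjusted p = 0.080). It passed with the mouse as a block (adjusted p = 0.018) and without the jejunum of mouse 3, its highest jejunum library (log2FC -2.56, adjusted p = 0.013). Nts, neurotensin, was at 32.4, 33.2, 79.6 and 57.8 CPM and 39.6, 33.1, 37.2 and 52.5 CPM and did not pass (adjusted p = 0.47). The granule protein Chgb, which most enteroendocrine cells make, was at 75.6, 84.4, 103 and 104 CPM in the jejunum and 30.2, 38.8, 52.4 and 26.8 CPM in the ileum (log2FC 1.31, SE 0.19, adjusted p = 0.00019). The 8 enteroendocrine markers summed to 143.2 to 196.3 CPM in the jejunum and 72.9 to 99.1 CPM in the ileum, with 3 of 8 higher in the jejunum and none at 0, and their part in the hormone differences was not tested. Of 19 tuft cell genes 2 (10.5%) were higher in the jejunum, near the 8.30% of all tested genes, and 0 higher in the ileum. Dclk1, a tuft cell kinase, was at 5.71, 3.88, 6.15 and 4.74 CPM and 4.04, 3.63, 2.78 and 3.403 CPM (log2FC 0.57, SE 0.44, adjusted p = 0.44).

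Stem cell and cell cycle genes passed in the ileal direction in 8.3% of each list, near the 7.80% of all tested genes. By sign alone, all 48 cell cycle genes and 23 of 24 stem cell genes had a negative log2FC, against 7206 of 13429 tested genes. Lgr5, the receptor that marks crypt base stem cells, was at 5.59, 5.69, 5.79 and 3.25 CPM in the jejunum and 12.00, 18.9, 29.2 and 18.9 CPM in the ileum (log2FC -1.96, SE 0.27, adjusted p = 0.00014), 1 of 2 genes higher in the ileum among 24 of that list. Of 48 cell cycle genes 4 were higher in the ileum and 0 in the jejunum, with a median log2FC of -0.42. Ccnd1, cyclin D1, was at 81.9, 133, 114 and 109 CPM in the jejunum and 167, 283, 309.8 and 225 CPM in the ileum (log2FC -1.17, SE 0.22, adjusted p = 0.0018), while Mki67, which marks dividing cells, did not pass, at 212, 286, 240.2 and 220.2 CPM and 253, 383, 359 and 143 CPM (log2FC -0.25, SE 0.34, adjusted p = 0.69). These counts rested on single libraries: without the ileum of mouse 1, 15 cell cycle and 7 stem cell genes were higher in the ileum, and 2 cell cycle genes were without the ileum of mouse 2 or 3, those of mice 1 and 3, or the jejunum of mouse 1, 3 or 4. With the mouse as a block the counts were 9 and 6, and with the block on only the P36 libraries they were 23 and 10. The stem and crypt markers summed to 764.7 to 925.5 CPM in the jejunum and 596.7 to 1323 CPM in the ileum, none of the 6 was at 0, and their part in these differences was not tested.

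Lymphocyte genes were high in the jejunum of 2 of the 4 mice. Summed T cell markers stood at 122.0, 12.9, 156.2 and 17.6 CPM in the jejunum and at 9.51, 7.26, 13.2 and 13.1 CPM in the ileum, and 8 of 14 tested markers were higher in the jejunum. Cd8a, the coreceptor of cytotoxic T cells, was at 7.002, 0.882, 10.1 and 1.17 CPM in the jejunum and 0.332, 0.1701, 0.368 and 0.158 CPM in the ileum (log2FC 4.14, SE 0.79, adjusted p = 0.0018). Gzma, a granzyme of killer lymphocytes, was at 47.1, 2.69, 59.4 and 3.36 CPM and 2.101, 0.851, 1.39 and 0.791 CPM (log2FC 4.43, SE 1.02, adjusted p = 0.0071). Gzmb was at 17.1, 1.94, 25.8 and 1.54 and 0.995, 0.907, 1.23 and 0.633 CPM (log2FC 3.59, SE 0.76, adjusted p = 0.0039). Itgae, the integrin that anchors intraepithelial lymphocytes, was at 9.06, 1.01, 8.98 and 1.81 CPM in the jejunum and 0.995, 0.737, 0.9802 and 0.633 CPM in the ileum (log2FC 2.62, SE 0.58, adjusted p = 0.0055). Without the jejunum of mouse 3 the values were 3.50 for Cd8a, 3.79 for Gzma and 2.86 for Gzmb. Without the ileum of mice 1 and 3 they were 4.81 for Cd8a and 5.08 for Gzma. The jejunum of mice 1 and 3 was high for each of these genes, and the jejunum of mice 2 and 4 was nearer to the ileum values. No T cell marker was at 0 in all libraries. B and plasma cell markers did not follow this pattern: they summed to 25.8, 6.09, 91.1 and 42.8 CPM in the jejunum and 8.02, 20.9, 58.2 and 73.3 CPM in the ileum, and 0 of 11 passed in either direction.

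Genes of MHC class I and of the interferon response were higher in the jejunum where they passed. Of 59 tested MHC class I and interferon-induced genes 11 were higher in the jejunum and 0 higher in the ileum, with a median log2FC of 0.57, and the jejunal count was 24 without the ileum of mouse 1, 17 without those of mice 1 and 3, 22 with the mouse as a block, 7 without the ileum of mouse 3 or the jejunum of mouse 1, and 6 without the jejunum of mouse 2. The ileal count was 1 without the ileum of mouse 3. H2-Q1, a class I molecule with near-identical relatives, was at 329, 263, 235 and 264 CPM in the jejunum and 124, 40.2, 17.9 and 44.9 CPM in the ileum (log2FC 2.26, SE 0.40, adjusted p = 0.0010; 2.99 without the ileum of mouse 1). Ddx60, an antiviral helicase, was at 131, 199.7, 92.8 and 108 CPM and 69.4, 47.6, 26.8 and 22.2 CPM (log2FC 1.68, SE 0.33, adjusted p = 0.0023). Of 13 MHC class II genes 1 (7.7%) was higher in each region, near the 8.30% and 7.80% of all tested genes. H2-Aa, the class II alpha chain, was at 108, 478, 44.6 and 40.9 CPM in the jejunum and 173, 279, 32.1 and 36.6 CPM in the ileum (log2FC 0.37, SE 0.83, adjusted p = 0.83), with mice 1 and 2 above mice 3 and 4 in both regions. Without the jejunum of mouse 2 its log2FC was -1.01, and without the ileum of mouse 2 it was 1.09.

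Cytokines and chemokines of the epithelium had 7 of 25 genes higher in the jejunum, or 4 without the ileum of mouse 2, and 1 higher in the ileum. Il33, an alarm cytokine, was at 63.02, 41.3, 49.3 and 49.5 CPM in the jejunum and 7.85, 3.005, 1.14 and 1.98 CPM in the ileum (log2FC 3.86, SE 0.56, adjusted p = 0.00021; 4.65 without the ileum of mouse 1). Of 22 genes known to respond to microbes 5 were higher in the ileum and 2 in the jejunum. The ileal count was 1 without the jejunum of mouse 1, 2 or 4, 2 without the ileum of mouse 4 or those of mice 1 and 3, and 8 with the mouse as a block, and the jejunal count was 1 when any P36 library was left out. Saa1, a serum amyloid A protein with a near-identical relative, was at 2.94, 1.72, 3.91 and 5.702 CPM in the jejunum and 146, 32.7, 85.7 and 164 CPM in the ileum (log2FC -4.91, SE 0.53, adjusted p = 1.3e-05), with mouse 2 lowest in both regions. Pigr, which carries IgA across the epithelium, was at 4603, 5194, 4767 and 4225 CPM in the jejunum and 2400, 2323, 3548 and 2931 CPM in the ileum (log2FC 0.75, SE 0.19, adjusted p = 0.013). Among 27 innate sensors 5 were higher in the ileum, or 3 without the ileum of mouse 2, those of mice 1 and 3, or the jejunum of mouse 1 or 4, and 2 in the jejunum, or 4 without the ileum of mouse 1. Tlr4, the receptor for bacterial lipopolysaccharide, was low throughout, at 0.118, 0.0882, 0.135 and 0.426 CPM and 1.71, 2.495, 3.72 and 1.58 CPM (log2FC -3.62, SE 0.66, adjusted p = 0.0013; -4.33 without the jejunum of mouse 4). Of 4 tested butyrophilin-like genes 1 was higher in the jejunum, and the count was 3 without the ileum of mouse 1 and 0 without the ileum of mouse 2 or 4 or the jejunum of mouse 1.

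Of 8 tested laminin chains, which form the basement membrane, 4 were higher in the ileum and 0 in the jejunum. Matrix receptors had 2 of 23 genes (8.7%) higher in the ileum, near the 7.80% of all tested genes, and 0 in the jejunum, or 1 without the jejunum of mouse 2. Lamb3, a laminin chain, was at 11.5, 5.51, 8.53 and 6.29 CPM in the jejunum and 86.2, 69.7, 25.2 and 79.8 CPM in the ileum (log2FC -3.04, SE 0.47, adjusted p = 0.00037). Itga2, a collagen-binding integrin, was at 18.9 ± 3.82 and 43.5 ± 10.98 CPM (mean ± SD, n = 4; log2FC -1.20, SE 0.25, adjusted p = 0.0032).

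The machinery of protein uptake and breakdown that is prominent before weaning differed in few genes at P36. Of 61 lysosomal genes 7 were higher in the jejunum and 5 higher in the ileum, with a median log2FC of -0.03, close to that of all tested genes. The shares of 11.5% and 8.2% stood beside 8.30% and 7.80% of all tested genes. The jejunal count was 2 without the ileum of mouse 2, 3 without the ileum of mouse 3 or 4 or the jejunum of mouse 1 or 2, and 4 without the jejunum of mouse 4. The ileal count was 3 without the ileum of mouse 3 or 4, those of mice 1 and 3, or the jejunum of mouse 1, 2 or 4, and 8 with the mouse as a block. The sialidase Neu1 was at 53.7, 43.02, 59.04 and 54.1 CPM in the jejunum and 307, 178, 114 and 216 CPM in the ileum (log2FC -1.96, SE 0.34, adjusted p = 0.00088), and the carboxypeptidase Scpep1 at 41.7 to 49.1 and 67.4 to 85.2 CPM (log2FC -0.78, SE 0.13, adjusted p = 0.00072). Fcgrt, the neonatal Fc receptor that carries antibodies, was at 80.8, 73.2, 87.7 and 85.7 CPM in the jejunum and 62.3, 61.9, 70.3 and 67.5 CPM in the ileum (log2FC 0.32, SE 0.31, adjusted p = 0.54). Its regions did not overlap, and the difference did not pass, though it did with only the P36 libraries fitted (adjusted p = 0.024) and with the block there (adjusted p = 0.020).

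Plasma protein genes best known from the liver, at low levels here, went both ways, with 6 of 31 higher in the jejunum and 3 higher in the ileum. The jejunal count was 3 without the ileum of mouse 4, those of mice 1 and 3, or the jejunum of mouse 1 or 2. Mbl2, a mannose-binding lectin, was at 21.9, 10.9, 19.98 and 19.1 CPM in the jejunum and 0.276, 0.1701, 0 and 0 CPM in the ileum (log2FC 7.26, SE 0.87, adjusted p = 3.6e-05; 8.19 without the ileum of mouse 1). Serpina1b, a form of alpha-1-antitrypsin with near-identical relatives, was at 0.942, 0.397, 1.796 and 1.28 CPM and 19.8, 13.9, 30.1 and 17.2 CPM (log2FC -4.20, SE 0.54, adjusted p = 6.5e-05).

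Circadian clock genes included 8 of 19 higher in the jejunum and 2 higher in the ileum. The count in the jejunum was 5 without the ileum of mouse 3 or 4, those of mice 1 and 3, or the jejunum of mouse 1 or 2. Dbp, a clock output factor, was at 31.9, 23.1, 19.6 and 22.1 CPM in the jejunum and 4.59, 3.69, 0.368 and 2.61 CPM in the ileum (log2FC 3.12, SE 0.50, adjusted p = 0.00047). Arntl, the clock activator BMAL1, was at 34.01, 34.2, 33.3 and 35.3 CPM and 53.6, 46.05, 47.5 and 48.4 CPM (log2FC -0.52, SE 0.13, adjusted p = 0.012), a call that was lost without the ileum libraries of mice 1 and 3 together (adjusted p = 0.071). The regions of a mouse came from the same animal, and the order in which they were collected was not given in the sources used here. Of 20 immediate-early genes, which respond within minutes to handling, 4 were higher in the ileum and 0 in the jejunum, and the ileal count was 2 without the ileum of mouse 2 or 3 or the jejunum of mouse 1 or 4, and 1 without the ileum libraries of mice 1 and 3. Egr1 was at 20.1, 14.1, 81.04 and 31.3 CPM in the jejunum and 92.3, 299.7, 222 and 77.9 CPM in the ileum (log2FC -2.24, SE 0.51, adjusted p = 0.0066; -2.96 without the jejunum of mouse 3), and 0 of 9 heat-shock genes passed in either direction.

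The regional differences were then set beside those of the P6 mice, and the change with age was tested as a region-by-age interaction, the P36 log2FC minus that at P6. The interaction passed in 1167 genes (8.69% of those tested). At P6, 871 genes (6.49%) met both criteria for a regional difference. Of the 484 genes past both criteria at P36, 256 had an adjusted p below 0.05 in the same direction at P6, 126 of them jejunal and 130 ileal. A further 213 did not pass at P6, and for 90 of these the interaction itself passed. The remaining 15 passed in the opposite direction at P6. Fabp1, Cd36, Slc10a2, Fabp6, Gip and the Hoxb genes named above had the same direction at both ages with no interaction call: Fabp1 had a P6 log2FC of 7.10, Fabp6 of -6.51 and Gip of 4.47.

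Other leading regional genes at P36 were near equal between the regions at P6. Fgf15 averaged 129.5 ± 37.05 CPM (jejunum) and 113 ± 83.9 CPM (ileum) at P6 (SD, n = 4). The interaction was -7.33 (SE 1.44, adjusted p = 0.0043). In the P36 jejunum, no library was above 0.480 CPM. Slc40a1 averaged 1271 ± 233 and 1227 ± 534 CPM at P6 (interaction -3.90, SE 0.61, adjusted p = 0.00076), and Nr1h4 had a P6 log2FC of -0.15 (interaction -1.88, adjusted p = 7.2e-06). On the jejunal side, Slc23a1 averaged 99.95 ± 16.3 and 112 ± 14.6 CPM at P6 (interaction 6.29, SE 0.73, adjusted p = 5.6e-05), and Ugt2a3 had a P6 log2FC of 0.45 (interaction 4.93, adjusted p = 5.9e-07). For Slc2a2 and Suox the difference was present at P6 and larger at P36, with P6 log2FC values of 2.93 and -2.25 and interactions of 4.19 and -3.76 (adjusted p = 0.00090 and 5.9e-07). The bile acid exporter subunits and the starch enzymes changed sides: at P6, Slc51b (1.93) and Slc51a (0.77) were higher in the jejunum, and Mgam (-2.52) and Sis (-1.24) in the ileum. Sis was low in both regions at P6, at 8.12 ± 1.55 CPM (jejunum) and 19.2 ± 8.65 CPM (ileum), against means of 4866 and 1518 CPM at P36.

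Some genes had a large regional difference at P6 and a smaller one at P36. Fcgrt had a P6 log2FC of 3.39 (interaction -3.07, adjusted p = 0.00040), and Dclk1 one of -3.72 (interaction 4.29, adjusted p = 0.0027). The P6 levels of Dclk1 were near the floor, at 0.0703 ± 0.0260 CPM (jejunum) and 0.990 ± 0.998 CPM (ileum; SD, n = 4). The P6 differences of Scd2, a stearoyl-CoA desaturase, and Slc6a14 were larger than those at P36: Scd2 averaged 1.09 ± 0.211 CPM (jejunum) and 1083 ± 237 CPM (ileum) at P6, against 180.5 ± 74.4 and 742 ± 249.9 CPM at P36 (SD, n = 4; interaction 7.90, adjusted p = 5.4e-08), and Slc6a14 had an interaction of 5.61 (adjusted p = 0.013). Mfsd2a, a carrier of lysophosphatidylcholine, averaged 603 ± 173 and 3.304 ± 3.096 CPM at P6 and 48.3 ± 3.59 and 17.1 ± 4.604 CPM at P36 (interaction -6.0, adjusted p = 0.00014). Its P36 difference did not pass (adjusted p = 0.056) and passed with the mouse as a block (adjusted p = 0.0496) and without the ileum of mouse 1 (log2FC 1.70, adjusted p = 0.047). It also passed with only the P36 libraries fitted (log2FC 1.52, adjusted p = 0.00049) and with the block there (adjusted p = 0.00057). The adjusted p was 0.026 in DESeq2 and 0.034 with sex as a covariate. Other large interactions were those of Abhd3 (-4.77), Ephb3 (-4.38), Tubb2a (-5.32), Gm3776 (5.69) and 2010109I03Rik (5.84), with adjusted p = 2.5e-05, 0.00062, 0.00012, 0.00014 and 0.0063. At P36 their log2FC values were 0.31, -1.26, -0.84, 1.49 and -0.51. Of these, Ephb3 and Tubb2a did not pass at P36 (adjusted p = 0.070 and 0.25) and passed with only the P36 libraries fitted (adjusted p = 0.0019 and 0.027). The P36 call of Gm3776 (adjusted p = 0.0085) was lost without the ileum libraries of mice 1 and 3 (1.31, adjusted p = 0.093), and the value of 2010109I03Rik was 0.44 without the ileum of mouse 1.

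Afp, alpha-fetoprotein, and 10 other genes met both criteria at both ages in opposite directions. Afp averaged 12.6 ± 4.34 CPM (jejunum) and 956 ± 530.2 CPM (ileum) at P6 (SD, n = 4), and at P36 stood at 7.71, 8.29, 9.92 and 10.3 CPM in the jejunum and 0.498, 1.02, 0.776 and 0.871 CPM in the ileum (log2FC 3.52, SE 0.39, adjusted p = 1.7e-05; interaction 9.76, adjusted p = 3.4e-08). Hlf, a clock output factor, had log2FC values of -3.89 at P6 and 3.88 at P36, with 4.49 at P36 without the ileum of mouse 2 and 3.26 without those of mice 1 and 3. Gm766 had -2.47 at P6 and 5.64 at P36, with 4.99 without the jejunum of mouse 1. Lrrc3, Gsta2, Pirt and Syt14 likewise went from the ileum to the jejunum, and Kcnh1, Mpp3, Acta1 and Dmgdh from the jejunum to the ileum. Some of these changes rested on low levels in both regions. At P6, Lrrc3 averaged 0.128 and 0.80 CPM (jejunum and ileum), Pirt 0.0935 and 0.620 CPM and Dmgdh 0.162 and 0.0136 CPM. At P36, Kcnh1 averaged 0.054 and 0.340 CPM. The P36 value of Acta1 was -2.60 and -1.84 without the ileum of mouse 1. That of Lrrc3 was 3.67, 4.42 without the ileum of mouse 1 and 4.30 without those of mice 1 and 3, and that of Gsta2 was 2.69 and 2.05 without the jejunum of mouse 4. Without the ileum libraries of mice 1 and 3, the P36 calls of Kcnh1, Syt14, Pirt and Gsta2 were lost (adjusted p = 0.074, 0.057, 0.13 and 0.091). Dmgdh had 2 counts in the P36 jejunum libraries together and 96 in the ileum, a ratio of 53.2 with an exact 95% interval of 14.3 to 445.

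**Figure D5:**
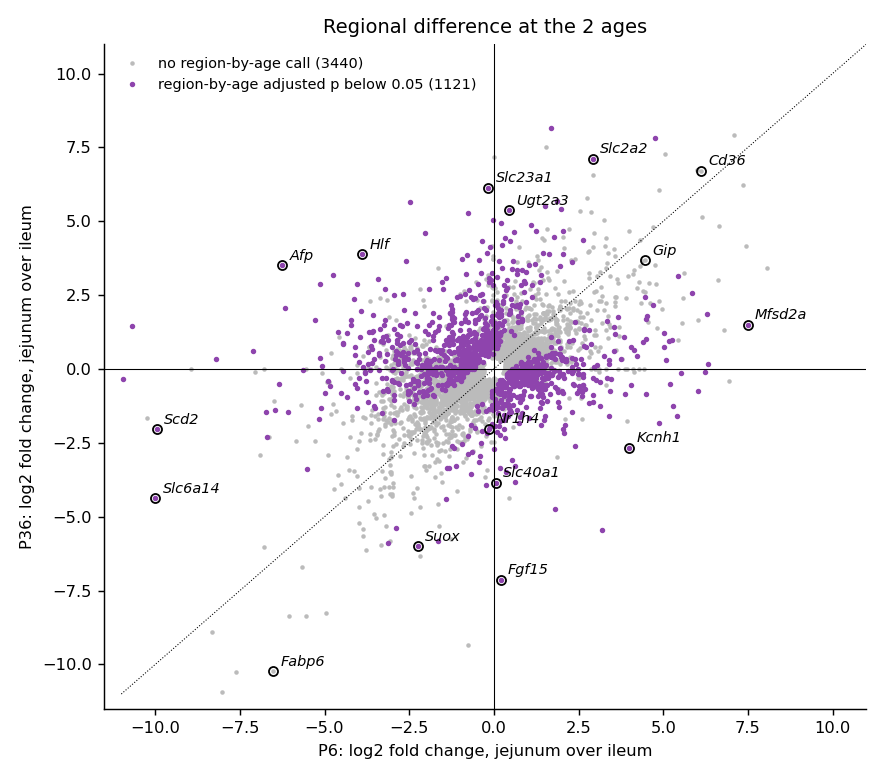
Regional log2FC (jejunum over ileum) at P6 on the x axis and at P36 on the y axis for the 4561 genes past the regional test at either age, of which 1121 had a region-by-age call and are purple. The dotted line marks equal differences; Fgf15, Slc40a1 and Nr1h4 lie below 0 at P36 with P6 values near 0, Slc23a1 and Ugt2a3 above it, and Afp and Hlf are on opposite sides of 0 at the 2 ages.

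Whether the P36 regional difference depended on sex was tested with 2 female and 2 male mice. No gene (0.00% of those tested) passed the region-by-sex interaction at an adjusted p below 0.05 in edgeR, 181 genes had an unadjusted p below 0.05, and DESeq2 also gave 0, with 206 genes below 0.05 unadjusted.

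The regional genes lay near each other more often than other tested genes did, as a description. Of the 276 jejunal genes, 65 (23.6%) had another of them within 100 kb on the same chromosome, a neighbourhood that 7.3% of all tested genes had, and of the 208 ileal genes 34 (16.3%) did, against 3.5%. Groups of 3 or more, apart from the Hoxb genes, were the glutathione transferases Gstm7, Gstm6, Gstm3 and Gstm1 at chr3:107926334-108017973, the alcohol dehydrogenases Adh1, Adh6a and Adh4 at chr3:138277645-138430892, Gpr157 with the sugar transporters Slc2a5 and Slc2a7 at chr4:150087503-150168482, and Dhrs1 with the leukotriene receptors Ltb4r2 and Ltb4r1 at chr14:55739020-55768492, all jejunal. The ileal groups were Bhmt, Bhmt2 and Dmgdh, enzymes of betaine and dimethylglycine breakdown, at chr13:93616891-93752823, and Bex4, Tceal8 and Bex1 at chrX:136139045-136215513.

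Promoter windows as defined for Lct were matched by symbol for 213 of the 276 jejunal genes, 141 of the 208 ileal genes and 10219 of the 13429 tested genes. The hexamers AGATAA or TGATAA, on either strand, were in a window of 50 (23.5%) of these jejunal, 25 (17.7%) of the ileal and 1326 (13.0%) of the tested genes. A gene with several windows counted if any of them matched. Of all 32851 windows of the table, taken singly, 18.6% matched, which is a share of windows and not of genes. The hexamer TATAAA, on either strand, was in 21.1%, 19.1% and 9.2% of the first 3 sets. The median GC content of these sets was 55.3%, 55.7% and 60.3%, so that the sets also differed in base composition.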

How the data were processed

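RNA of released small intestinal epithelium was made into stranded mRNA libraries and sequenced. Per the labels and the study's methods, the authors trimmed the read pairs with Trimmomatic 0.38, aligned them with STAR (2.5.3 in the submitters' processing notes) and counted exons by gene with featureCounts (Subread 1.6.3) on the reverse strand of the UCSC mm10 annotation; the deposited values are raw counts, 1 file per library, of 24421 genes. Each group held 4 mice, taken as separate animals from the labels.

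The counts were tested with the quasi-likelihood test of edgeR 4.0.16 in R 4.3.3 (TMM factors, filterByExpr, 4 group means of age by region over all 16 libraries, Benjamini-Hochberg over 13429 genes). Adjusted p-values in the text are from this fit unless another is named, and the 4-fold minimum is that of the study. The steps were tested on simulated data. Library totals of 12159237 to 25947276 counts set the precision, and intervals cover counting error only. The labels give both regions of a mouse the same animal number, and the numbers pair the libraries: deviations from the group means of libraries of the same P36 mouse correlated at 0.289, 0.343, 0.345 and 0.239, each highest with its own number.

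Genes named are, in each direction, the 12 with the largest fold difference (adjusted p below 0.05, over 4-fold, mean of at least 10 CPM in the higher region, no overlap), up to 5 per list with the smallest adjusted p, the best-known members of the lists, the 6 largest age interactions in each direction with the genes past both criteria in opposite directions at the ages, and cell type markers. Some genes that this rule names are not reported here. The members of the lists and the lists themselves were chosen with earlier results of these data known. Abcg5, Acat2, Apoa4, Arntl, Cpt1a, Cyp51, Mttp, Muc4, Slc51a and the genes named only as neighbours of others were chosen after their values were seen. Alternatives were other scalings and filters, DESeq2 1.42.0, sex as a covariate, the mouse as a block, P36 libraries alone, and each P36 library left out.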

Additional observations from a re-analysis of the deposited data

Results flagged for a closer look

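In 15 of 309 groups of 4 libraries examined among the named genes, 1 library stood apart by Dixon's ratio of its gap to the range; chance alone gives about 1 in 20 groups. In the ileum of mouse 1 the ratio was 0.844 for Gata4, 0.945 for Slc9a3, 0.915 for Ugt2a3 and 0.835 for Slc36a1, each with the highest ileal level. In the ileum of mouse 3 Cd36 was lowest, with 0.906, and in the ileum of mouse 4 Nr1h4 was highest, with 0.892, over a narrow range of levels. In the jejunum, mouse 2 was highest for G6pc (0.831), H2-Aa (0.846) and Slc25a48 (0.884), and mouse 3 for Hsd3b3 (0.864). The jejunum of mouse 4 was highest for Tlr4 (0.863) and lowest for Lgr5 (0.921). For Acta1 the ratio was 0.842 and for Hoxb8 and Dmgdh 1.0, with 0 counts in the other 3 jejunum libraries for the last pair.

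The regional difference changed with age in 1167 genes by the interaction test. Among the named genes whose change was tested, the P36 log2 fold change minus that at P6 was negative, a shift towards the ileum, for Nr1h4 (-1.88), Fgf15 (-7.33), Slc51a (-2.40), Slc51b (-3.21), Suox (-3.76), Slc40a1 (-3.90), Fcgrt (-3.07), Mfsd2a (-6.0), Tubb2a (-5.32), Acta1 (-4.99), Abhd3 (-4.77), Ephb3 (-4.38), Dmgdh (-8.63), Kcnh1 (-6.65) and Mpp3 (-4.07). It was positive, a shift towards the jejunum, for Sis (2.92), Mgam (3.44), Slc2a2 (4.19), Slc6a14 (5.61), Ugt2a3 (4.93), Slc23a1 (6.29), Slc28a1 (6.62), Dclk1 (4.29), Afp (9.76), Hlf (7.78), Scd2 (7.90), Gm3776 (5.69), 2010109I03Rik (5.84), Syt14 (4.67), Pirt (5.22), Gsta2 (5.91), Lrrc3 (6.26) and Gm766 (8.11).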

How the results depend on the processing

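The count of genes past the test was 2163 and lay between 1936 and 2959 under RLE factors, library totals, no filter, a mean CPM of at least 1, sex as a covariate, DESeq2 (2706) and P36 libraries alone. It was 3695 with only the P36 libraries and the mouse as a block. With only the P36 libraries and no block, the calls of Treh, Slc15a1, Cpt1a and Muc2 were lost. That fit added calls of Fcgrt, Mfsd2a, Ephb3 and Tubb2a. The count past both criteria was 484, and 1165 genes passed with an absolute log2 fold change above 1. Leaving out 1 P36 library gave 1418 to 2726 genes past the test, 406 to 597 past both criteria, 841 to 1431 with an age interaction and 0 with a sex interaction, where 124 to 697 had an unadjusted p below 0.05. Without the ileum libraries of mice 1 and 3, an alternative chosen after seeing the data, these were 1740, 475 and 1054. The age interaction passed in 1713 genes with DESeq2, and with library totals 75.8% of its calls were positive against 57.7% with TMM factors. With the mouse as a block, which the pairing allows, the counts were 2437, 513, 1294 and 0; apart from Fabp2, Apob, Pyy, Mfsd2a and Muc2 the block changed no call of a named gene.

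Of 2675 values of named genes under these alternatives, 2606 kept direction and side of the threshold. H2-Aa reversed without the jejunum of mouse 2 (range -1.01 to 1.09 over libraries left out), and 2010109I03Rik reversed with the block (0.12), with the block on P36 libraries alone (0.14) and without the ileum of mouse 1 (range -0.89 to 0.44). Neither had a call to lose, and the cause was not tested. DESeq2 gave no adjusted p for Gata4. Depth limits the genes below 1 CPM most, in the ileum of mouse 4 with 12159237 counts.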

Other observations

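St6galnac6, a sialyltransferase of glycolipids, differed widely between mice and was higher in the ileum than in the jejunum of every mouse. It was at 2.59, 0.0882, 3.73 and 0.373 CPM in the jejunum and 71.3, 1.65, 121 and 4.91 CPM in the ileum of mice 1 to 4, high in mice 1 and 3 in both regions. T cell markers were high in the jejunum of these mice as well, and no test was made of either pattern. St6galnac6 was chosen after its values were seen.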
